A study of Mus musculus with 12 samples.

Results

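The 36 genes described here encode enzymes of glycolysis, the pyruvate dehydrogenase complex with its kinases, and the citric acid cycle. They were chosen by name, as the loci of the deposited expression table whose gene name is, or in a joined locus includes, 1 of the 36 symbols. Each symbol matched exactly 1 of the 40597 loci of the table. All 36 averaged at least 1 FPKM (fragments per kilobase of transcript and per unit of library size, so a level per length), so all passed the filter on low values. Of these, 18 are glycolytic (including both lactate dehydrogenase subunits and the regulator Pfkfb3) and 18 belong to pyruvate dehydrogenase and the cycle. The members differ widely in level, with Eno1 highest at a mean of 679 FPKM over the 12 libraries and Eno2 lowest at 3.35 FPKM.

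The RNA came from neurospheres, floating clusters of neural stem and progenitor cells, which were started from dissociated hypothalamus of C57Bl/6 mice on embryonic day 14.5. In passage 3, cells were exposed for 4 h to the synthetic glucocorticoid dexamethasone at 100 nM or to ethanol alone as vehicle. The groups are male dexamethasone, female dexamethasone, male vehicle and female vehicle cultures, with 3 libraries each and 12 in all. All groups share the strain, age, tissue and culture form, and no genetic change is given in the labels. The labels do not state what separates the 3 biological replicates of a group, and p-values therefore rest on how far these particular cultures differ.

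Glycolysis splits glucose in the cytosol into pyruvate, with a small yield of ATP and NADH. Pyruvate is then reduced to lactate or enters mitochondria, where pyruvate dehydrogenase turns it into acetyl-CoA for the citric acid cycle, and the pyruvate dehydrogenase kinases hold that entry back. Proliferating neural progenitors are known for heavy use of glycolysis and astrocytes for release of lactate, while glucocorticoids are textbook regulators of glucose use in liver, muscle and fat.

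The cultures carried markers of neural stem and progenitor cells and of glia, while no list looked at was specific to hypothalamus. All 10 neural stem and progenitor markers, all 7 astrocyte markers and all 7 oligodendrocyte lineage markers averaged at least 1 FPKM, as did 5 of 8 neuronal and 3 of 4 ependymal markers. Single libraries could be far lower, as Gfap ran from 1.15 to 78.0 FPKM and Sox10 from 0.262 to 7.56 FPKM. Of the remaining lists, 1 of 6 endothelial, 1 of 6 mural and fibroblast (Acta2, mean 27.9 FPKM), 1 of 5 pituitary, 0 of 7 microglial and 0 of 4 erythroid markers did so. With dexamethasone 2 markers were called. Msi1, an RNA-binding protein of neural progenitors, fell to 14.1 to 20.9 FPKM in dexamethasone libraries, against 22.7 to 32.6 FPKM in vehicle libraries (log2 fold change -0.64, adjusted p = 0.0151 in limma). Cspg4, the proteoglycan of oligodendrocyte precursors, stood at 15.7 to 25.2 FPKM in dexamethasone libraries, against 10.4 to 14.4 FPKM in vehicle libraries, and so rose (log2 fold change 0.76, adjusted p = 0.0114 in limma). Their part in the values of the members was not tested. The values are bulk levels, in which fewer cells of a type and less RNA per cell cannot be told apart. The RNA of X inactivation, Xist, stood at 14.1 FPKM in male dexamethasone library 2 and 3.04 FPKM in male vehicle library 2, against at most 0.0466 FPKM in the other male libraries. Unnamed loci held 53.1% of the FPKM of male dexamethasone library 2 and 75.0% of that of male vehicle library 3, against 11.6% to 38.6% in the other libraries. Depth is unknown, since FPKM hold no read numbers, and the value of 1 fragment, judged roughly from small loci, differed by up to 1.61 times between libraries. For 15 of the 36 members another gene overlaps on the opposite strand. Aldoa was deposited as 1 locus with a predicted antisense gene, and several glycolytic genes, Gapdh among them, have processed pseudogenes in mice. No source used here states how shared and opposite-strand reads were counted, so these levels carry that uncertainty.

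None of the 36 genes passed the main test for an effect of dexamethasone after 4 h, which did not pair same-numbered libraries. In a fit with the replicate number as a block, 1 member of 36 passed, Aldoc (adjusted p = 0.0338 in limma), while 804 of all 14931 loci tested did. The 2 members farthest from 0 pointed in opposite directions and are both isozymes tied to particular brain cells. Eno2, the neuronal enolase, was lower in dexamethasone cultures in all 6 comparisons of same-numbered libraries, by -0.76 on the log2(FPKM + 1) scale averaged over the sexes. Aldoc, the brain aldolase of astrocytes and Purkinje cells, was higher in all 6, by 0.58. Of the 10 most abundant members, Aldoc was the one farthest from 0, and the other 9 had estimates from -0.11 (Eno1) to 0.17 (Mdh1).

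Values were tested with limma on log2(FPKM + 1) over 14931 loci, with a call at an adjusted p under 0.05. For the effect averaged over the sexes, 0 of 36 members were called, against 1.53% of all loci tested (229 loci). At an unadjusted p under 0.05 there were 5 members (Pfkfb3, Aldoc, Eno2, Pdhb and Idh3g), against 13.6% of all loci. In males 0 members were called, against 0.315% of loci, and 2 (Eno2 and Idh3g) had an unadjusted p under 0.05, against 6.38%. In females 0 were called, against 0.482%, and 3 (Eno2, Pdhb and Dlat) had an unadjusted p under 0.05, against 8.02%. These shares place the members near or below the background of all loci. The averaged count was also 0 in 2 reduced sets, both chosen after seeing the data. One was without both male libraries numbered 2, the other without male dexamethasone library 2 and male vehicle library 3. However, it was 1 with the replicate number as a block (Aldoc, adjusted p = 0.0338 in limma), where 804 of the 14931 loci were called. It was also 1 without male dexamethasone library 2 alone (Eno2, adjusted p = 0.0246 in limma), where 178 of the 14931 loci were called.

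Averaged over the sexes, 24 members lay above 0 and 12 below, with a median log2 fold change of 0.03 beside -0.01 over all loci tested. Of all 14931 loci tested 7237 lay above 0. Of the 7615 loci averaging at least 10 FPKM 4252 did, with a median of 0.02, close to that of the members. The split of the members depends on the scaling, since under quantile normalization 14 of 36 lay above 0. It also depends on single libraries, with 16 to 27 above 0 when 1 was left out and 16 without male dexamethasone library 1. Glycolysis members split evenly, 9 above and 9 below (4 above under quantile normalization), while 15 of the 18 pyruvate dehydrogenase and cycle members lay above 0 with a median of 0.06 (10 of 18 under quantile normalization). All 6 dexamethasone libraries were above all 6 vehicle libraries in 0 members, against 1.41% of loci, and below them in 1 member, Eno2, against 0.804%. For groups of 3 libraries that do not overlap, as described below for single genes, no share over all loci was taken. Same-numbered comparisons gave a higher dexamethasone value in 6 of 6 cases for 4 members (Aldoc, Pdhb, Idh3g and Sdhb; 9.83% of loci) and a lower value in 6 of 6 for 2 members (Pfkfb3 and Eno2; 10.1% of loci). The unadjusted 95% interval of the averaged effect lay inside -0.5 to 0.5 for 23 members, against 58.7% of loci. The 13 members with a wider or more distant interval were 10 of glycolysis and the 3 kinases Pdk1, Pdk2 and Pdk3.

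**Figure D1:**
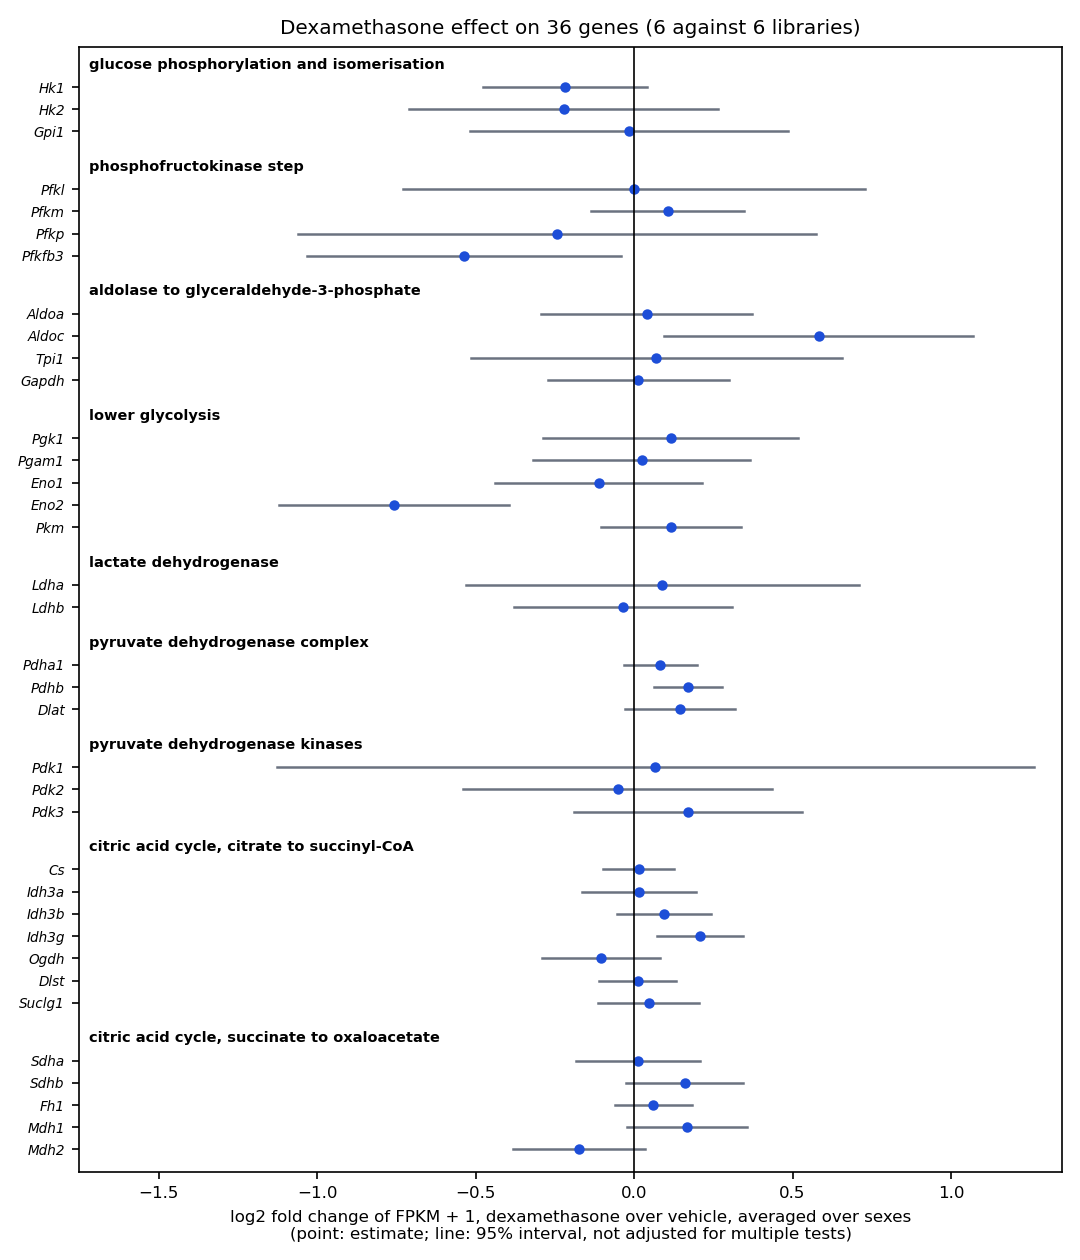
Log2 fold change of FPKM + 1, dexamethasone over vehicle averaged over the sexes, for each of the 36 genes by role, with points as estimates from 6 against 6 libraries and lines as 95% intervals not adjusted for multiple tests. Eno2 (-0.76) and Aldoc (0.58) lie farthest out, the intervals of most pyruvate dehydrogenase and cycle enzymes are short, and that of Pdk1 is the widest (-1.13 to 1.26).

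Libraries of the same group differed widely in many glycolytic genes, in an order that these genes largely shared. Pdk1, a pyruvate dehydrogenase kinase and textbook target of the hypoxia-inducible factors, had 41.3, 7.17 and 23.7 FPKM in male and 49.7, 23.2 and 13.3 FPKM in female dexamethasone libraries. It had 30.4, 8.69 and 21.8 FPKM in male and 52.8, 23.3 and 11.5 FPKM in female vehicle libraries. Library 1 was therefore the highest of its group in all 4 groups, library 2 the lowest in both male groups and library 3 the lowest in both female groups, over a 7.36-fold range. Ldha, the lactate dehydrogenase subunit that favours lactate formation, had 526, 236 and 442 FPKM in male and 573, 391 and 294 FPKM in female dexamethasone libraries, and 475, 255 and 405 FPKM in male and 568, 324 and 277 FPKM in female vehicle libraries. The order of the libraries was the same as for Pdk1 at both ends, over a 2.43-fold range.

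The same order at both ends held for Pfkl, the liver-type phosphofructokinase (15.99 to 56.0 FPKM), and for Tpi1, triose phosphate isomerase (206 to 529 FPKM). Of the 18 glycolysis members, male library 1 was the highest in both treatments in 10, against 22.2% of all loci tested, and male library 2 the lowest in both in 12, against 11.9%. Female library 1 was the highest in both treatments in 14 of 18, against 17.7% of loci, and female library 3 the lowest in both in 10, against 19.4%. For the 18 pyruvate dehydrogenase and cycle members the same counts were 2, 1, 4 and 4. In males these members leaned to another order. Male library 2 was the highest in both treatments in 7 of them, against 11.6% of loci, and male library 3 the lowest in both in 6, against 20.6%. Some same-numbered library was the highest in both male groups for 19 of all 36 members, against 52.9% of loci, and in both female groups for 20, against 52.3%. Such agreement was about as common among the members as among all loci, and what stood out was which library led. The members' values come from the same 12 libraries, so they are not independent, and no test was made.

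Summed over the 18 glycolysis members, the share of protein-coding FPKM was 1.00%, 0.637% and 0.791% in male dexamethasone libraries 1 to 3 and 0.997%, 0.763% and 0.804% in the female ones. In vehicle libraries it was 0.857%, 0.722% and 0.825% in males and 1.06%, 0.788% and 0.742% in females. Library 1 was the highest of its group in all 4 groups, and male library 2 the lowest under either treatment. The pyruvate dehydrogenase and cycle members took 0.415% to 0.520% in dexamethasone libraries and 0.431% to 0.508% in vehicle libraries. The 7 astrocyte markers also differed by library, with summed levels of 1174, 349 and 192 FPKM in male and 1288, 741 and 565 FPKM in female dexamethasone libraries. They summed to 798, 450.0 and 214 FPKM in male and 1275, 1625 and 505 FPKM in female vehicle libraries, so male library 3, not 2, was the lowest in that list. The part of cell composition, depth or culture conditions in the order of the libraries was not tested.

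**Figure D2:**
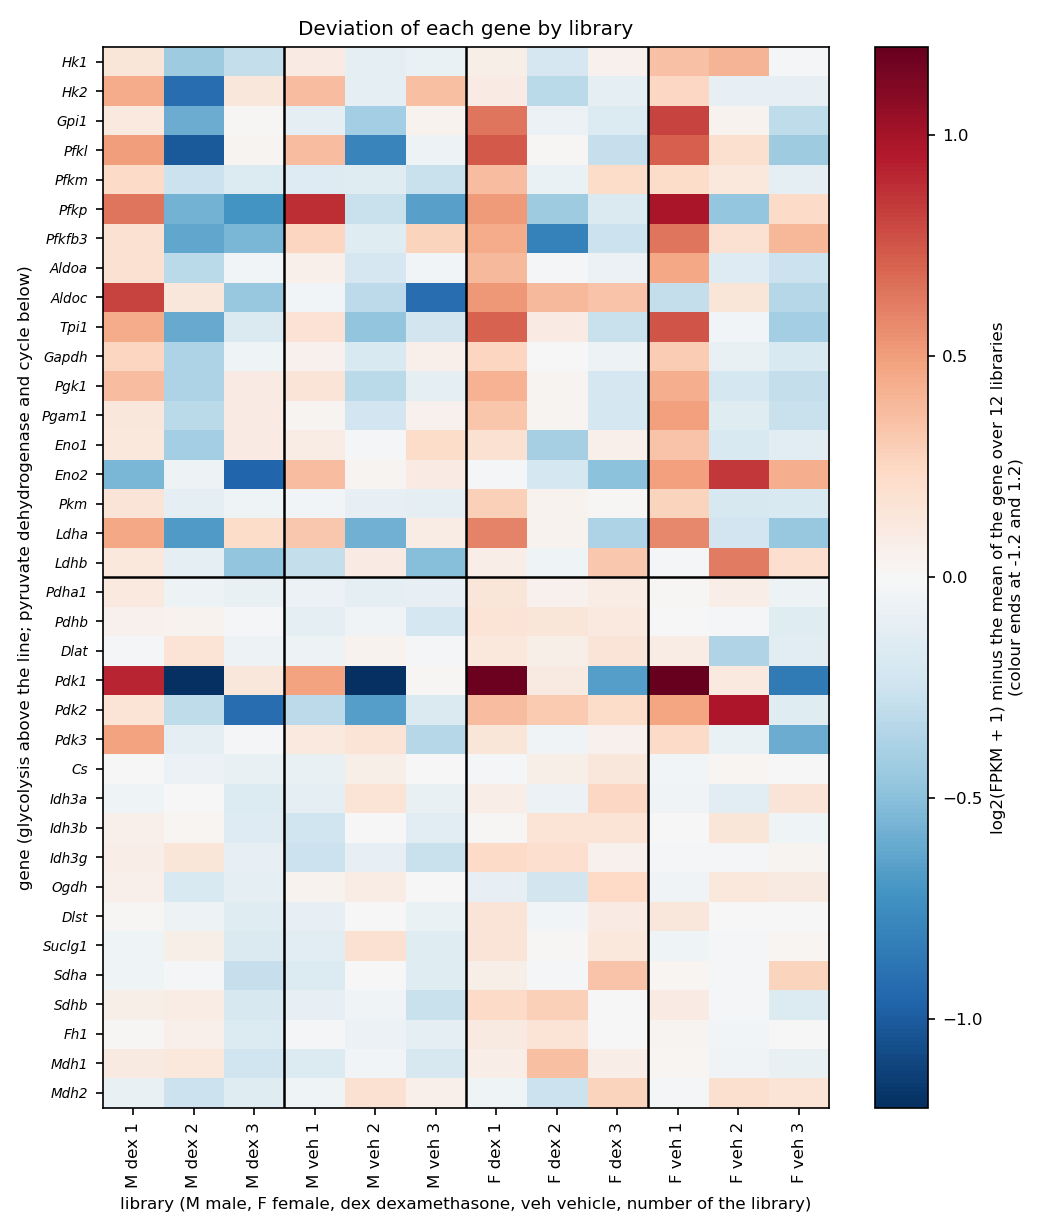
Log2(FPKM + 1) of each gene (rows) in each library (columns) minus the gene's mean over the 12 libraries, red above and blue below the mean, with colour ending at -1.2 and 1.2. Among the glycolysis rows, library 1 of each group is mostly red, male library 2 and female library 3 are mostly blue, while the rows of the pyruvate dehydrogenase complex and the cycle are pale.

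The SD within groups on the log2(FPKM + 1) scale had a median of 0.31 over the glycolysis members and 0.14 over the pyruvate dehydrogenase and cycle members, beside 0.22 over all loci tested and 0.18 over the loci averaging at least 10 FPKM. Pdk1 had the largest SD at 1.02, followed by Pfkp at 0.70 and Pfkl at 0.62. Pdhb and Cs had the smallest, 0.06 each. From the lowest to the highest of the 12 libraries, the median range was 2.32-fold over the glycolysis members and 1.41-fold over the other 18. An effect of a given size is therefore less easily detected for a glycolysis gene than for a cycle gene in these data.

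**Figure D3:**
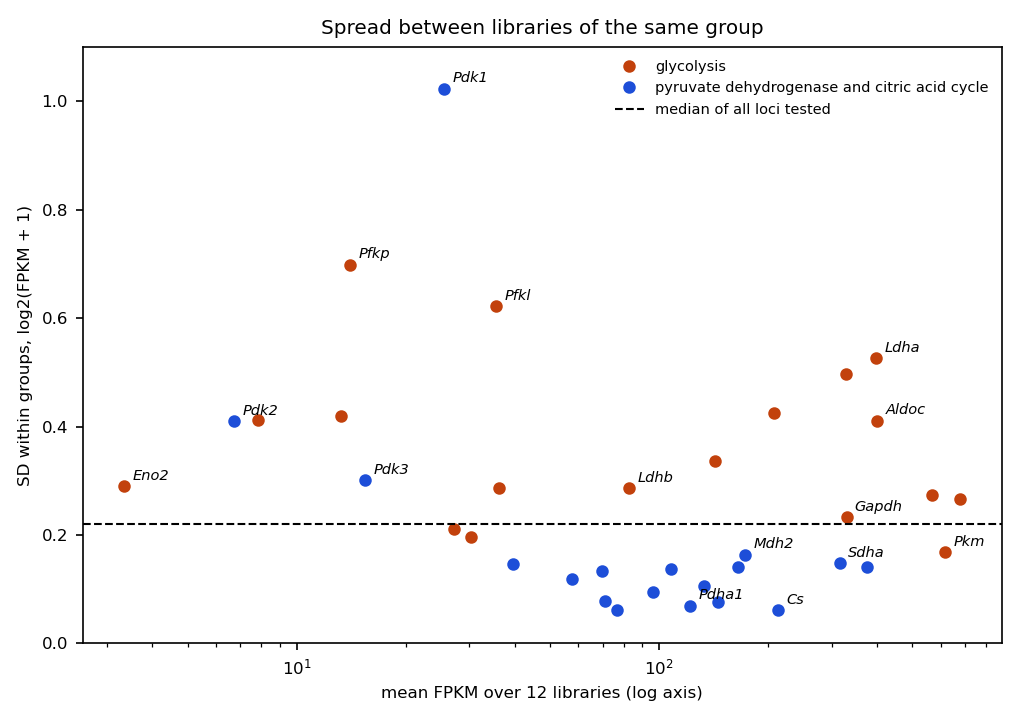
SD within groups of log2(FPKM + 1), on the vertical axis, against the mean FPKM over 12 libraries (log axis), with 1 point a gene and the median of all loci tested as a dashed line. Glycolysis genes (orange) lie mostly above the line at 0.22 and pyruvate dehydrogenase and cycle genes (blue) mostly below it, except the kinases Pdk1, Pdk2 and Pdk3.

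The sequence just before the start of transcription is shown for 5 members, chosen after their values were seen: Pdk1 and Ldha, which varied together by library, Cs, which hardly varied, and Eno2 and Aldoc, with the largest differences between treatments. The sequences are RefSeq windows on GRCm38.p6, written 5′ to 3′ along the gene's strand. Capitals mark ACGTG or GCGTG on either strand, letters that the hypoxia-inducible factors are known to bind. Pdk1 is on chr2:71872974-71873223, plus strand, Ldha on chr7:46845554-46845803, plus strand, Cs on chr10:128337477-128337726, plus strand, Eno2 on chr6:124769674-124769923, minus strand, and Aldoc on chr11:78322823-78322967, plus strand. Each run is 250 bases long, except that of Aldoc, which ends where the annotated first exon begins and has 145 bases.
Pdk1: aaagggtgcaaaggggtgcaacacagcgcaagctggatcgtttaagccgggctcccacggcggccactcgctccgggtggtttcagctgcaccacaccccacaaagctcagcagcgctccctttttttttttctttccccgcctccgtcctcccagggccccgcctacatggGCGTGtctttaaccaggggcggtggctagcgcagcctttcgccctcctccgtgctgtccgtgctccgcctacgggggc
Ldha: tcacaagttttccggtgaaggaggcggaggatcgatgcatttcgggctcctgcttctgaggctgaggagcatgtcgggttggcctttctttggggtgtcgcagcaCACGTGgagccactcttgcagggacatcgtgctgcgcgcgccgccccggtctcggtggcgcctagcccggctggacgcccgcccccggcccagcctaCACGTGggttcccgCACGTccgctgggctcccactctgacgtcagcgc
Cs: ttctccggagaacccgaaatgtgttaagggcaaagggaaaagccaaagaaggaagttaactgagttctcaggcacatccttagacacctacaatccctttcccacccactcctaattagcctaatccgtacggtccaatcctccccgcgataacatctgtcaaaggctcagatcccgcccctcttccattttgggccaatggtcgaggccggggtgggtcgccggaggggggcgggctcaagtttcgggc
Eno2: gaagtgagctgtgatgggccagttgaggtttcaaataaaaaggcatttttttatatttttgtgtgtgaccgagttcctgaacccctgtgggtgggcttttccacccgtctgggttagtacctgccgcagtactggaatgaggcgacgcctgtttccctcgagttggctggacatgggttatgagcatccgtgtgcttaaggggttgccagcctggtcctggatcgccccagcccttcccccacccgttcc
Aldoc: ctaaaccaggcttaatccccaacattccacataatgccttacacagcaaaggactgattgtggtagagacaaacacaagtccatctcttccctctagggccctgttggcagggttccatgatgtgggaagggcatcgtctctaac

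Ldha held 5 matches in 3 capital runs, where CACGTG counts on both strands and overlapping matches are counted, Pdk1 held 1, and the other printed runs held none. The full RefSeq window of Aldoc, 250 bases long, holds 1 GCGTG in the part that lies inside the annotated gene and is not printed, and Aldoc is counted with it in the numbers that follow. The Ldha window belongs to a start 4329 bases inside the annotated gene. A RefSeq window was found for 35 of 36 members, and in the window nearest to the annotated start ACGTG or GCGTG occurred in 12 of 18 glycolysis members and 13 of 17 others. Over all promoter windows of 250 bases, 38.6% of 32851 held either. The members' windows were richer in G and C, at 59.1% beside 53.2% over all promoters. GNACANNNTGTNC, letters of the glucocorticoid response element searched on both strands, occurred in 0 of the members' windows and in 0.387% of all promoters. A match in letters is a description and not a binding site, and a window without one says nothing about sites elsewhere.

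Glucose enters the pathway through the hexokinases, of which Hk1 is the broadly expressed brain form and Hk2 the inducible form. Hk1 (chromosome 10, 62268855 to 62379908) had 29.7, 19.6 and 21.8 FPKM in male and 28.3, 23.2 and 27.9 FPKM in female dexamethasone libraries. In vehicle cultures it had 28.8, 24.7 and 25.3 FPKM in male and 34.5, 35.97 and 26.5 FPKM in female vehicle libraries. The groups overlapped in both sexes, and the difference did not pass (log2 fold change -0.22, SE 0.12, adjusted p = 0.440). Hk2 had 10.7, 3.54 and 8.46 FPKM in male and 8.199, 5.84 and 6.95 FPKM in female dexamethasone libraries, against 10.1, 6.89 and 10.01 FPKM in male and 9.23, 7.04 and 7.04 FPKM in female vehicle libraries. Male dexamethasone library 2 was the lowest of all, and the groups overlapped (log2 fold change -0.22, SE 0.22, adjusted p = 0.676). Without male dexamethasone library 2 and male vehicle library 3, the estimate for Hk2 was 0.02. Gpi1, glucose-6-phosphate isomerase, ranged over 132 to 314 FPKM in dexamethasone libraries and 150.4 to 351 FPKM in vehicle libraries with an averaged log2 fold change of -0.02.

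Phosphofructokinase commits the sugar to glycolysis, and its activator fructose-2,6-bisphosphate is made by Pfkfb3. Pfkfb3 (chromosome 2, 11471433 to 11554077) had 14.4, 7.88 and 8.33 FPKM in male and 17.6, 6.79 and 10.4 FPKM in female dexamethasone libraries. It had 15.3, 11.3 and 15.5 FPKM in male and 20.4, 14.5 and 17.0 FPKM in female vehicle libraries. Each dexamethasone library was below its same-numbered vehicle library, yet the groups overlapped in both sexes because library 1 was high throughout, and the difference did not pass (log2 fold change -0.54, SE 0.22, adjusted p = 0.327). Of the subunits, Pfkp, the platelet type abundant in brain, had 20.5, 8.31 and 7.37 FPKM in male and 18.6, 9.24 and 11.2 FPKM in female dexamethasone libraries, against 24.5, 10.5 and 7.78 FPKM in male and 26.2, 9.003 and 15.1 FPKM in female vehicle libraries. Library 1 was the highest in all 4 groups, and the averaged effect did not pass (log2 fold change -0.24, SE 0.37, adjusted p = 0.800). The muscle type Pfkm ranged over 24.9 to 39.1 FPKM in dexamethasone libraries and 24.8 to 35.2 FPKM in vehicle libraries, and its log2 fold change was 0.11. That of Pfkl was -0.00.

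Aldolase splits fructose-1,6-bisphosphate, with Aldoa as the general form and Aldoc as the brain form. Aldoc (chromosome 11, 78322968 to 78327781) had 667, 420.0 and 278 FPKM in male and 547, 499 and 484 FPKM in female dexamethasone libraries. In vehicle cultures it had 371, 307 and 202 FPKM in male and 312, 420.2 and 300.2 FPKM in female vehicle libraries. The female groups did not overlap, the male groups did, and each dexamethasone library was above its same-numbered vehicle library. The means were 455 ± 197 FPKM in male and 510.0 ± 32.7 FPKM in female dexamethasone cultures, against 293 ± 85.4 FPKM in male and 344 ± 66.2 FPKM in female vehicle cultures (SD, n = 3 each). The averaged effect did not pass in limma (log2 fold change 0.58, SE 0.22, adjusted p = 0.287), with effects of 0.58 in each sex. The call depends on the model, since with the replicate number as a block the adjusted p was 0.0338.

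Of the markers of astrocytes, a cell type in which Aldoc is abundant, none was called (0 of 7). Gfap, the intermediate filament of astrocytes, had a log2 fold change of 0.66 (adjusted p = 0.802) and Aldh1l1, a folate enzyme of astrocytes, one of -0.05 (adjusted p = 0.984), and 2 of the 7 markers lay above 0. Their part in the Aldoc values was not tested. Aldoa had 637, 448 and 548 FPKM in male and 735, 550.3 and 533 FPKM in female dexamethasone libraries, against 586, 488 and 547 FPKM in male and 772, 504 and 469.6 FPKM in female vehicle libraries. Library 1 was the highest in all 4 groups, and the averaged effect did not pass (log2 fold change 0.04, SE 0.15, adjusted p = 0.932).

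Tpi1, which interconverts the products of aldolase, had 426, 206 and 277 FPKM in male and 513, 334 and 259 FPKM in female dexamethasone libraries, against 352, 225 and 269 FPKM in male and 529, 305 and 235 FPKM in female vehicle libraries. The groups overlapped throughout (log2 fold change 0.07, SE 0.26, adjusted p = 0.931). Gapdh, the dehydrogenase often used as a loading control, had 391, 253 and 316 FPKM in male and 392, 325 and 312 FPKM in female dexamethasone libraries, against 338, 287 and 341 FPKM in male and 405, 308 and 287 FPKM in female vehicle libraries. Its effect was close to 0 (log2 fold change 0.01, SE 0.13, adjusted p = 0.980), and the 12 libraries spanned a 1.60-fold range.

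**Figure D4:**
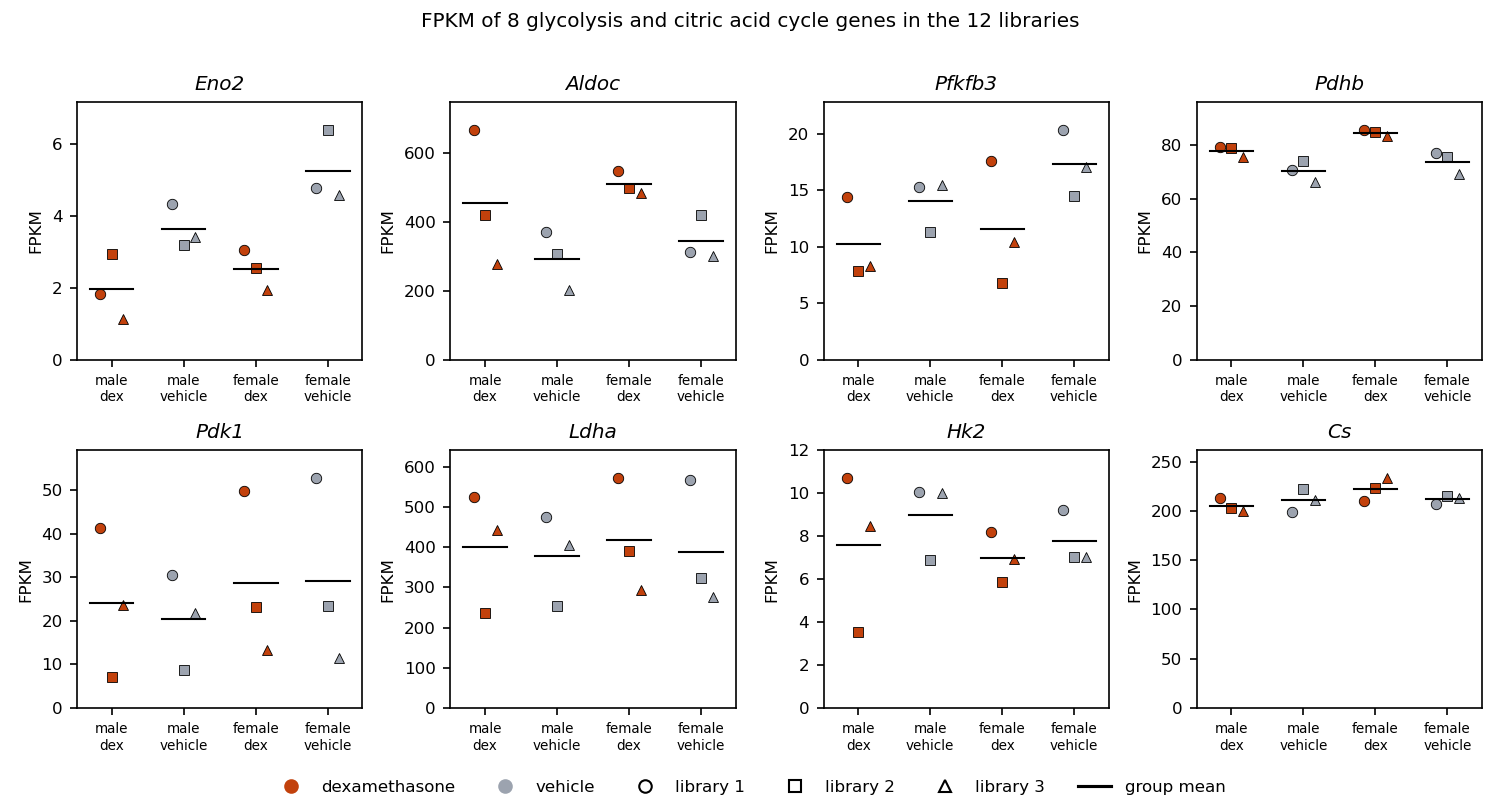
FPKM (vertical axis, from 0) of 8 genes in male and female dexamethasone (orange) and vehicle (grey) libraries, with the marker shape giving the library number and a bar the mean of 3 libraries. Eno2 is lower in all 6 dexamethasone libraries (1.13 to 3.07 FPKM) than in all 6 vehicle libraries (3.21 to 6.40 FPKM), Pdk1 and Ldha follow the library number, and Cs is flat.

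Enolase makes phosphoenolpyruvate, and its neuronal form Eno2 was the member closest to a call. Eno2 (chromosome 6, 124760053 to 124769673) had 1.82, 2.94 and 1.13 FPKM in male and 3.07, 2.57 and 1.94 FPKM in female dexamethasone libraries. In vehicle cultures it had 4.33, 3.21 and 3.41 FPKM in male and 4.77, 6.40 and 4.58 FPKM in female vehicle libraries. Every dexamethasone library was below every vehicle library, of either sex. The means were 1.96 ± 0.917 FPKM in male and 2.52 ± 0.567 FPKM in female dexamethasone cultures, against 3.65 ± 0.599 FPKM in male and 5.25 ± 1.00 FPKM in female vehicle cultures (SD, n = 3 each). The averaged effect did not pass in limma (log2 fold change -0.76, SE 0.16, adjusted p = 0.0545, interval -1.12 to -0.40). Without male dexamethasone library 2 it was -0.87 with an adjusted p of 0.0246, a call. With the replicate number as a block the adjusted p in limma was 0.0537, no call. Without both male libraries numbered 2 the adjusted p was 0.0560. Its level was the lowest of the 36, where the pseudocount of 1 FPKM shrinks a fold change.

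Neuronal markers differed widely in level in these cultures. Map2 averaged 274 FPKM, and Tubb3, Elavl3, Snap25 and Syt1 averaged 4.98, 2.69, 2.43 and 1.63 FPKM. Rbfox3 and Dcx, nuclear and cytoskeletal markers of neurons, averaged 0.483 and 0.581 FPKM, and Stmn2 was lower still. The 8 neuronal markers summed to 253 to 324 FPKM in dexamethasone libraries and 231 to 354 FPKM in vehicle libraries, most of it from Map2, whose log2 fold change was 0.01. The part of neuronal cells in the Eno2 values was not tested. Eno1, the general enolase and the most abundant member, had 734, 506 and 717 FPKM in male and 761, 508 and 699.7 FPKM in female dexamethasone libraries, against 715, 664 and 783 FPKM in male and 853, 591 and 613 FPKM in female vehicle libraries. Library 2 was the lowest in all 4 groups, the treatments overlapped, and the effect did not pass (log2 fold change -0.11, SE 0.15, adjusted p = 0.768).

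Pkm, pyruvate kinase of muscle and proliferating cells, had 685, 570.2 and 594 FPKM in male and 749, 632 and 621 FPKM in female dexamethasone libraries, against 600.4, 574 and 570.1 FPKM in male and 741, 537 and 540.2 FPKM in female vehicle libraries. Library 1 was the highest in all 4 groups, and the averaged effect did not pass (log2 fold change 0.12, SE 0.10, adjusted p = 0.643). Pgk1, phosphoglycerate kinase, ranged over 108 to 188 FPKM in dexamethasone libraries and 112 to 190.2 FPKM in vehicle libraries with a log2 fold change of 0.11. Pgam1, phosphoglycerate mutase, ranged over 28.5 to 45.3 FPKM in dexamethasone libraries and 29.6 to 50.7 FPKM in vehicle libraries with one of 0.02. Of the lactate dehydrogenases, Ldha (given above) had an effect of 0.09 with an interval of -0.53 to 0.71. Ldhb, the subunit that favours pyruvate formation, ranged over 58.0 to 101 FPKM in dexamethasone libraries and 56.5 to 125 FPKM in vehicle libraries with an effect of -0.03. Neither passed the test.

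The pyruvate dehydrogenase complex showed small differences with little spread. Pdhb, the beta subunit of its first enzyme (chromosome 14, 8165996 to 8173025), had 79.4, 78.8 and 75.7 FPKM in male and 85.7, 84.8 and 83.2 FPKM in female dexamethasone libraries. It had 70.8, 74.1 and 66.1 FPKM in male and 76.9, 75.7 and 69.1 FPKM in female vehicle libraries. The dexamethasone values lay above the vehicle values within each sex without overlap. The averaged effect of 0.17 (SE 0.05) did not pass (adjusted p = 0.152). Pdha1, the alpha subunit, had an effect of 0.08 (adjusted p = 0.511), and Dlat, the acetyltransferase core, one of 0.15 (adjusted p = 0.438).

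The kinases that inactivate the complex varied more. Pdk3 had 21.6, 14.05 and 15.0 FPKM in male and 16.8, 14.7 and 15.7 FPKM in female dexamethasone libraries, against 16.6, 17.1 and 11.7 FPKM in male and 17.9, 14.3 and 9.69 FPKM in female vehicle libraries. The groups overlapped in both sexes (log2 fold change 0.17, SE 0.16, adjusted p = 0.659). Pdk1, whose library values are given above, had an effect of 0.07 with an SE of 0.53, so its interval of -1.13 to 1.26 holds changes of more than 2-fold in either direction. Pdk2, the broadly expressed kinase, ranged over 2.87 to 8.43 FPKM in dexamethasone libraries and 3.61 to 13.3 FPKM in vehicle libraries with an effect of -0.05 (adjusted p = 0.941).

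In the citric acid cycle, citrate synthase (Cs) had 213, 203 and 199.6 FPKM in male and 210.5, 223 and 234 FPKM in female dexamethasone libraries, against 199, 223 and 211 FPKM in male and 207, 215 and 213 FPKM in female vehicle libraries. It spanned a 1.17-fold range over the 12 libraries, the narrowest of the 36, and its effect of 0.01 had an interval of -0.10 to 0.13. Idh3g, a regulatory subunit of the NAD-dependent isocitrate dehydrogenase (chromosome X, 73778963 to 73786897), had 101, 106 and 89.6 FPKM in male and 113, 111 and 99.7 FPKM in female dexamethasone libraries, against 79.8, 89.7 and 79.4 FPKM in male and 94.3, 95.1 and 98.1 FPKM in female vehicle libraries. The female groups did not overlap, and the male groups overlapped by less than 1 FPKM. The averaged effect did not pass (log2 fold change 0.21, SE 0.06, adjusted p = 0.172). Its partner subunits Idh3a and Idh3b had effects of 0.02 and 0.09. Ogdh and Dlst, the first components of the 2-oxoglutarate dehydrogenase complex, had effects of -0.10 and 0.01, and Suclg1, of succinyl-CoA ligase, one of 0.05, none of them called.

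From succinate onward, Sdha, the flavoprotein of succinate dehydrogenase, had 303, 308 and 259 FPKM in male and 329.9, 308 and 398 FPKM in female dexamethasone libraries, against 279, 315 and 284 FPKM in male and 319, 308 and 376 FPKM in female vehicle libraries. Female library 3 was the highest under either treatment, and the effect was close to 0 (log2 fold change 0.01, SE 0.09, adjusted p = 0.966). Its iron-sulfur partner Sdhb was higher in 6 of 6 same-numbered comparisons, with an effect of 0.16 that did not pass (adjusted p = 0.423), and fumarase (Fh1) had an effect of 0.06. Cytosolic and mitochondrial malate dehydrogenase pointed in opposite directions. Mdh1, the cytosolic form, had 402, 409 and 316 FPKM in male and 394, 479 and 396 FPKM in female dexamethasone libraries, against 334, 365 and 326 FPKM in male and 381, 363 and 352 FPKM in female vehicle libraries. The female groups did not overlap, the male groups did, and the effect did not pass (log2 fold change 0.17, SE 0.08, adjusted p = 0.414). Mdh2, the mitochondrial form, had 162, 144 and 155 FPKM in male and 166, 143 and 207 FPKM in female dexamethasone libraries, against 165, 196 and 179 FPKM in male and 169, 197 and 192 FPKM in female vehicle libraries. Here the male groups did not overlap, with dexamethasone lower, while female dexamethasone library 3 was the highest of all, and the effect did not pass (log2 fold change -0.17, SE 0.09, adjusted p = 0.441).

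The design also asks whether the sexes differ. No member passed the interaction, the female effect minus the male effect (0 of 36 against 0.0335% of loci), and 0 had an unadjusted p under 0.05, against 1.47%. The interaction estimates ran from -0.23 (Ldhb) to 0.21 (Dlat), and that of Eno2 was -0.14 with an interval of -0.86 to 0.58. Between female and male cultures under dexamethasone 0 members were called, against 0.067% of loci, with 0 at an unadjusted p under 0.05, against 2.94%. Under vehicle 0 were called, against 0.0737%, and 3 (Ldhb, Pdk2 and Idh3g) had an unadjusted p under 0.05, against 4.88%.

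Pdk2 had the largest difference between the sexes. Under vehicle its female libraries stood at 9.12, 13.3 and 5.60 FPKM, against 4.86, 3.61 and 5.47 FPKM in male libraries. Under dexamethasone they stood at 8.43, 8.07 and 7.47 FPKM in females, against 7.16, 4.89 and 2.87 FPKM in males. The sexes did not overlap within either treatment, yet neither difference passed (log2 difference 0.82, adjusted p = 0.892 under vehicle, and 0.65, adjusted p = 1 under dexamethasone). Most estimates were slightly above 0 for females over males, 34 of 36 under dexamethasone with a median difference of 0.14 (0.04 over all loci) and 32 of 36 under vehicle with one of 0.10 (0.03 over all loci). Without male dexamethasone library 2, which carried Xist, the count under dexamethasone was 25 of 36, and without both male libraries numbered 2 the count under vehicle was 27. Without female vehicle library 1 the count under vehicle was 23, and under median ratio scaling it was 27. No share of all loci above 0 was taken for these sex differences. The members' values come from the same libraries and are not independent, and these counts were not tested. Of the members on the X chromosome, Pgk1, Pdha1, Pdk3 and Idh3g, female minus male differences under vehicle were 0.07, 0.11, -0.13 and 0.21.

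Ratios of isozymes of the same step do not depend on the scaling between libraries, so 6 ratios of FPKM were compared between treatments, with treatment labels permuted within each sex over 400 assignments. Eno2 over Eno1 averaged -8.25 ± 0.71 on the log2 scale in dexamethasone libraries and -7.33 ± 0.48 in vehicle libraries (SD, n = 6 each). The difference was -0.92 (exact two-sided permutation p = 0.025, adjusted p = 0.15 over the 6 ratios, smallest possible p 0.005). Lower ratios were seen in 5 of 6 same-numbered comparisons. Male dexamethasone library 2 was the exception, and without it the difference was -1.18 with an adjusted p of 0.03. Leaving out any other single library gave an adjusted p of 0.135 to 0.30. The call thus rests on leaving out the library that went the other way.

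Aldoc over Aldoa averaged -0.28 ± 0.37 in dexamethasone libraries and -0.83 ± 0.45 in vehicle libraries (SD, n = 6 each). The difference of 0.54 was positive in 6 of 6 same-numbered comparisons and did not pass (exact permutation p = 0.06, adjusted p = 0.18). In linear terms Aldoc stood at 0.508 to 1.05 times Aldoa in dexamethasone libraries and at 0.370 to 0.835 times in vehicle libraries, a comparison of levels per length. The other differences were -0.37 for Pfkp over Pfkm (adjusted p = 0.64), and -0.04 for Hk2 over Hk1, -0.12 for Ldhb over Ldha and 0.12 for Pdk1 over Pdk2 (adjusted p = 0.855 for each, exact permutation). The ratio of Pdk1 to Pdk2 ran from 1.47 to 8.24 in dexamethasone libraries and from 1.76 to 6.25 in vehicle libraries.

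**Figure D5:**
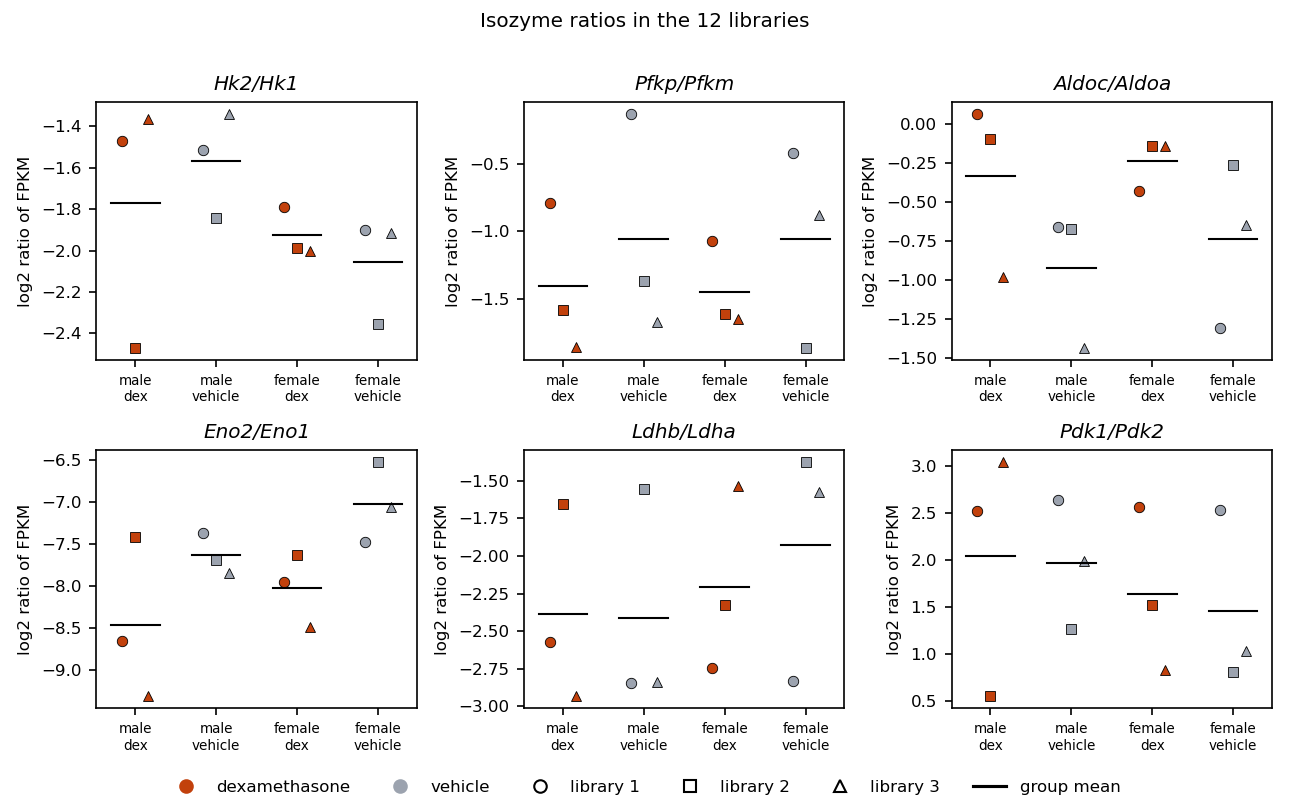
Log2 ratio of the FPKM of 2 isozymes (vertical axis) in male and female dexamethasone (orange) and vehicle (grey) libraries for 6 ratios, with the marker shape giving the library number and a bar the mean of 3 libraries. Eno2 over Eno1 lies lower under dexamethasone except in male library 2, Aldoc over Aldoa lies higher in each same-numbered comparison, and the other ratios follow the libraries more than the treatment.

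Genes around the members were read from lists of other enzymes, transporters and regulators. All 6 glucocorticoid target genes looked at were called as higher in each sex, Klf9 by 2.00 on the log2 scale (adjusted p = 4.44e-07). Of all loci tested, 0.315% were called in males and 0.482% in females. The 6 genes were chosen with earlier results of these data known, so their calls are no independent test of a response. No gene was called among 5 tested other glycolytic enzymes, 4 of the phosphofructokinase-2 family with Tigar, 6 other parts of pyruvate dehydrogenase, 14 other cycle enzymes, 9 transporters, 4 gluconeogenic genes, 8 of the pentose phosphate pathway, 9 of the shuttles and 12 of glycogen handling. With the replicate number as a block, enzymes that passed as higher included Idh2 and Sdhd of the cycle, H6pd of the pentose phosphate pathway and Gpd1 of the shuttles. That fit called 804 of all 14931 loci tested. Among 13 tested regulators of glycolytic transcription 1 was called, and with the block 1 was called as higher (Hif3a) and 1 as lower (Myc). Hif3a, a hypoxia-inducible factor subunit that can restrain its relatives, had 7.87, 5.15 and 8.06 FPKM in male and 5.48, 6.07 and 6.09 FPKM in female dexamethasone libraries, against 0.0300, 0.0742 and 0.0765 FPKM in male and 0.0509, 0.422 and 0.0378 FPKM in female vehicle libraries. All dexamethasone libraries lay far above all vehicle libraries, so Hif3a rose (log2 fold change 2.73, SE 0.13, adjusted p = 4.03e-06). Hif1a, the subunit that drives glycolytic genes in low oxygen, stood at 57.3 to 65.0 FPKM in dexamethasone libraries and 58.0 to 67.6 FPKM in vehicle libraries.

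The nearest to a call among the other enzymes was H6pd, hexose-6-phosphate dehydrogenase, which supplies NADPH for cortisone activation in the endoplasmic reticulum. It had 2.34, 1.351 and 2.08 FPKM in male and 2.10, 1.57 and 2.45 FPKM in female dexamethasone libraries, against 0.853, 0.796 and 0.853 FPKM in male and 1.16, 0.952 and 1.15 FPKM in female vehicle libraries. All 6 dexamethasone libraries were above all 6 vehicle libraries, and the difference did not pass (log2 fold change 0.60, SE 0.13, adjusted p = 0.0523), while with the replicate number as a block it did (adjusted p = 0.0397). Pdk4, a pyruvate dehydrogenase kinase and glucocorticoid target in muscle, had 7.61, 0.604 and 0.534 FPKM in male and 7.26, 4.72 and 2.11 FPKM in female dexamethasone libraries, against 0.952, 0.251 and 0.135 FPKM in male and 1.83, 2.19 and 0.386 FPKM in female vehicle libraries. Library 1 was the highest in 3 of the 4 groups, and the difference did not pass (log2 fold change 1.08, SE 0.47, adjusted p = 0.349). Gpd1, of the glycerol-phosphate shuttle, had a log2 fold change of 0.92 (adjusted p = 0.274), the transcription factor gene Myc one of -0.67 (adjusted p = 0.167) and Idh2, the mitochondrial NADP-dependent isocitrate dehydrogenase, one of 0.43 (adjusted p = 0.163). The calls of these 3 genes depend on the model too, since with the block Gpd1 (adjusted p = 0.0079) and Idh2 (0.0306) passed as higher and Myc (0.0106) as lower. Slc2a1, the glucose transporter of the blood-brain barrier and glia, was singled out after its values were seen. It had 22.5, 7.53 and 11.8 FPKM in male and 24.0, 13.7 and 12.6 FPKM in female dexamethasone libraries, against 16.5, 9.74 and 11.4 FPKM in male and 28.1, 13.4 and 12.4 FPKM in female vehicle libraries, with library 1 the highest of its group in all 4 groups.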

How the data were processed

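Per the labels, a stranded kit was used on total RNA, giving 12 libraries. The authors deposited FPKM values in 1 table with a column for each library and no counts. The submitters' processing notes name TopHat2 2.0.9, Cufflinks 2.2.1 and Cuffdiff 2.2.1 and the build GRCm38. Which annotation and strand option were used, and how libraries were scaled, is not given in the sources.

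After adding 1 FPKM and taking log2, all 12 libraries were fitted in limma 3.58.1 (R 4.3.3) with a mean for each of the 4 groups and trended eBayes. Loci averaging at least 1 FPKM were kept, which left 14931, and two-sided p-values were adjusted over them by the Benjamini-Hochberg method, with a call at 0.05. The added 1 FPKM shrinks fold changes at low levels. On simulated data with 14931 loci the averaged contrast found 46.8% of loci changed by 0.5, 81.3% of those changed by 1 and 92.1% of those changed by 2 on the log2 scale. Noise was drawn independently for each locus, and the changed loci were picked at random above a mean log2 value of 2. These shares are therefore not those of the members, whose glycolysis genes varied more and shared an order of libraries. Isozyme ratios were tested by exact permutation within each sex, adjusted over 6 ratios. The alternatives were another pseudocount, other filters and scalings, a robust fit, a replicate block, single-sex fits and leaving libraries out. Values in every library are given for members called in any fit with or without the block, the 10 with the largest averaged difference and the 10 most abundant, and for others the text turns on. From the other lists the text names genes called or among the 2 largest, with a few chosen after their values were seen. Members and lists were chosen with earlier results of these data known. Genes were placed by GENCODE M21 (GRCm38, counted from 1), and promoter windows are those of RefSeq on GRCm38.p6. Figures were drawn with matplotlib 3.10.9.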

Additional observations from a re-analysis of the deposited data

How the results depend on the processing

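With 3 libraries a group and FPKM without counts, small changes in variable members such as Pdk1 could not be detected, and no p-value here measures more than the spread between these cultures. Of the 6 counts of members called, 5 stayed at 0 under every alternative run. The averaged count was 1 with the replicate block (Aldoc, adjusted p = 0.0338) and ran from 0 to 1 when 1 library was left out, with 1 (Eno2) without male dexamethasone replicate 2. The difference in Eno2 over Eno1 ran from -1.18 to -0.70 without 1 library. Without male dexamethasone replicate 2, the library that went the other way, it was -1.18 with an adjusted p of 0.03. Without any other single library its adjusted p was 0.135 to 0.30. No other ratio was called without 1 library or with a pseudocount on both genes. Sign flips of same-numbered differences (smallest possible p 0.03125) and the 2 sets with 2 libraries left out could not call a single ratio, with lowest adjusted p of 0.1875 and 0.1, and say nothing about stability. Of 36 averaged effects 17 kept their sign in every alternative and 10 changed it under quantile normalization, none of them called.

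Over all loci, the averaged effect called 229 loci, against 804 with the replicate block (420 higher and 384 lower, against 171 and 58) and 146 to 223 without 1 library, and 98 without both male libraries numbered 2 or 115 without male dexamethasone library 2 and male vehicle library 3. In males 47 loci were called, against 148 with the block, 18 with male libraries alone, 16 and 17 in those 2 reduced sets, and 27 to 48 without 1 library. In females 72 were called, against 187 with the block, 33 with female libraries alone and 34 to 75 without 1 library. The interaction called 5 loci, against 8 with the block, 9 without the male libraries numbered 2 and 4 to 15 without 1 library, and the sex difference under vehicle 11, against 9 to 23 without 1 library. What libraries with the same number share is not stated in the labels. Deviations of same-numbered dexamethasone and vehicle libraries correlated at r = 0.08 to 0.17, with 4 of 6 pairs over 0.1, and differently numbered ones at -0.15 to 0.03. Each of the 12 libraries matched its own number best, a hint from the data and not from the design.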
